A study of Mus musculus with 18 samples.

Results

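The genes described here were 40 type I interferon-stimulated genes, listed by name, with earlier results of these data known, and looked up by symbol in the deposited count tables. Of the 40, 38 had a row among the 23930 genes of the panel and all 38 passed the filter on low counts, which left 11316 genes to test. Ifit3 and Isg15 had no row under these symbols and were not analysed here. CD4 and CD8 T cells had been sorted from mouse bone marrow by fluorescence-activated cell sorting, and their RNA had been amplified with the Ion AmpliSeq Transcriptome mouse panel, a targeted assay that counts reads over a short amplicon of each gene. Zinc in the drinking water was given to C57BL/6 and to pMT-10 mice, a second set of pMT-10 mice drank control water, and all drank their water for 30 days. Each of these 3 kinds of mice gave 3 CD4 and 3 CD8 libraries, 18 in all. The pMT-10 strain carries an interleukin-10 transgene behind a metallothionein promoter, which zinc switches on, so both groups of pMT-10 mice carried the transgene and both groups of zinc-fed mice received zinc. Which cells made IL-10 from the transgene is not stated in the labels, and neither is the age of the mice. The title of the series concerns IL-10, interferon gamma and emergency myelopoiesis, and the comparisons below ask how the listed genes stood in marrow T cells with IL-10 switched on, against each control.

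Type I interferons signal through a receptor made of IFNAR1 and IFNAR2 to a transcription factor that contains STAT2 and IRF9 and binds the interferon-stimulated response element (ISRE) in the promoters of their target genes. Interferon gamma acts through another receptor and mainly through another promoter element, the gamma-activated site (GAS), and many antiviral genes answer to both kinds of interferon. The products of these genes sense viral RNA and DNA, cut or edit RNA, stop translation, hold virus particles at the membrane and limit the signal itself, and resting T cells carry a tonic level of many of them.

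RefSeq promoter windows, running from 250 bases before to 50 bases after each start site on GRCm38.p6, were found by symbol for 28 of the 38 genes. The ISRE was searched as GAAA, any 2 bases and GAAA again, and the GAS as TTCNNNGAA, on both strands; matches of the 2 motifs can overlap each other. The ISRE letters were present in 11 of the 28 genes, 39.3%, and in 3.99% of all 27025 genes with a window. The GAS letters were present in 7 of the 28 genes, and in 9.55% of all genes. The stretches below are shown because they put genes that fell in CD4 cells of zinc-fed pMT-10 mice beside genes that rose there. Slfn5 fell and Isg20 rose against both controls. Ifit1, Oas1a, Oas3, Rsad2 and Bst2 were called lower against control water only. Trim30a was called higher only against the zinc-fed mice without the transgene. Each stretch reads 5′ to 3′ on the strand of the gene and lies wholly upstream of the gene's RefSeq start site. The ISRE letters are in capitals except in Isg20, where the capitals are the GAS letters.
Slfn5: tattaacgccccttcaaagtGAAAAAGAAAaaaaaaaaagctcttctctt
Ifit1: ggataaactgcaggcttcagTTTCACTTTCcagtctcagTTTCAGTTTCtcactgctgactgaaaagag
Oas1a: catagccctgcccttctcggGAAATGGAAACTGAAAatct
Oas3: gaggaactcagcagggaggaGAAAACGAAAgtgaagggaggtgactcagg
Rsad2: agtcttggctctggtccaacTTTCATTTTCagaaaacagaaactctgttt
Bst2: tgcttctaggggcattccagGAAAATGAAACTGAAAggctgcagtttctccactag
Trim30a: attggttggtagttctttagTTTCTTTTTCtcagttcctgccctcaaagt
Isg20: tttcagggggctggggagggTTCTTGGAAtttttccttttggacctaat
On GRCm38.p6 these stretches are chr11:82951927-82951976 (plus strand) for Slfn5, chr19:34640765-34640833 (plus) for Ifit1, chr5:120907526-120907565 (minus) for Oas1a, chr5:120777705-120777754 (minus) for Oas3, chr12:26456543-26456592 (minus) for Rsad2, chr8:71537567-71537622 (minus) for Bst2, chr7:104465200-104465249 (minus) for Trim30a and chr7:78913331-78913379 (plus) for Isg20. In the GENCODE M21 annotation the Slfn5 stretch lies inside the gene, outside its exons, because an annotated start is farther upstream; the other stretches lie outside the gene they belong to. Ifit1, Oas1a and Bst2 each held 2 ISRE matches in the stretch shown, and in Oas1a and Bst2 the 2 matches overlapped. The other genes with ISRE letters in the window were Ddx58, Eif2ak2, Ifih1 and Slfn8. GAS letters were also present in Adar, Bst2, Eif2ak2, Ifi35, Ifit2 and Oas1a. A match of letters is a description of the sequence and not evidence of binding.

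The 18 libraries held 10546798 to 18519474 counts, and libraries of 1 group correlated across genes with r between 0.974 and 0.988. Cd4 stood at 1654 to 3405 CPM (a gene's counts scaled to library size, with edgeR's TMM factors) in CD4 libraries and at 5.56 CPM or less in CD8 libraries, and Cd8a stood at 1817 to 2572 CPM in CD8 libraries and at 10.03 CPM or less in CD4 libraries. Il10 itself was at 16.6 to 26.0 CPM in CD4 cells of zinc-fed pMT-10 mice, 3.01 to 8.25 CPM in zinc-fed C57BL/6 and 1.40 to 3.63 CPM in pMT-10 on control water. All libraries of zinc-fed mice came from 1 sequencing chip and all libraries of control-water mice from the other, so zinc and chip cannot be told apart. The C57BL/6 libraries held reads of Y-linked genes and the pMT-10 libraries 6117 to 18633 reads of Xist, so strain, transgene and sex cannot be told apart against C57BL/6. Xist reads were also present in C57BL/6 CD4 replicates 2 and 3, at 97 and 510, beside 2 to 23 in the other C57BL/6 libraries. In bulk samples such as these, fewer cells with a transcript and less of it per cell cannot be told apart either. Several of the genes belong to families with close copies (Oas, Oasl, Mx, Schlafen, Ifit and Trim30), and how the submitters counted reads shared by copies is not stated, so values of single members are uncertain there.

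In CD4 cells the listed genes did not move as 1 block. Against zinc-fed C57BL/6, 12 of the 38 rose and 6 fell in zinc-fed pMT-10 mice at an adjusted p under 0.05, where 9.29% of all tested genes rose and 9.4% fell. Their median log2 fold change was -0.07, beside -0.05 over all genes tested. In 15 genes all zinc-fed pMT-10 libraries lay above all C57BL/6 libraries, where 18.6% of all genes did, and in 6 below, where 18.8% did. Against pMT-10 on control water, 5 of the 38 rose and 15 fell, where 9.38% of all tested genes rose and 9.4% fell, and the median was -0.28 beside -0.05 over all genes. Without overlap, 9 lay above control water, where 21.0% of all genes did, and 20 below, where 22.3% did. Both comparisons rest on the same 3 libraries of zinc-fed pMT-10 mice, so they are given side by side and not as separate evidence. The shares of all tested genes called are also the background for the CD4 counts by role that follow. The genes called higher against both controls were Zbp1, Isg20, Xaf1, Sp100 and Trafd1, and those called lower against both were Slfn5, Mx2, Oasl1, Oasl2 and Usp18.

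**Figure D1:**
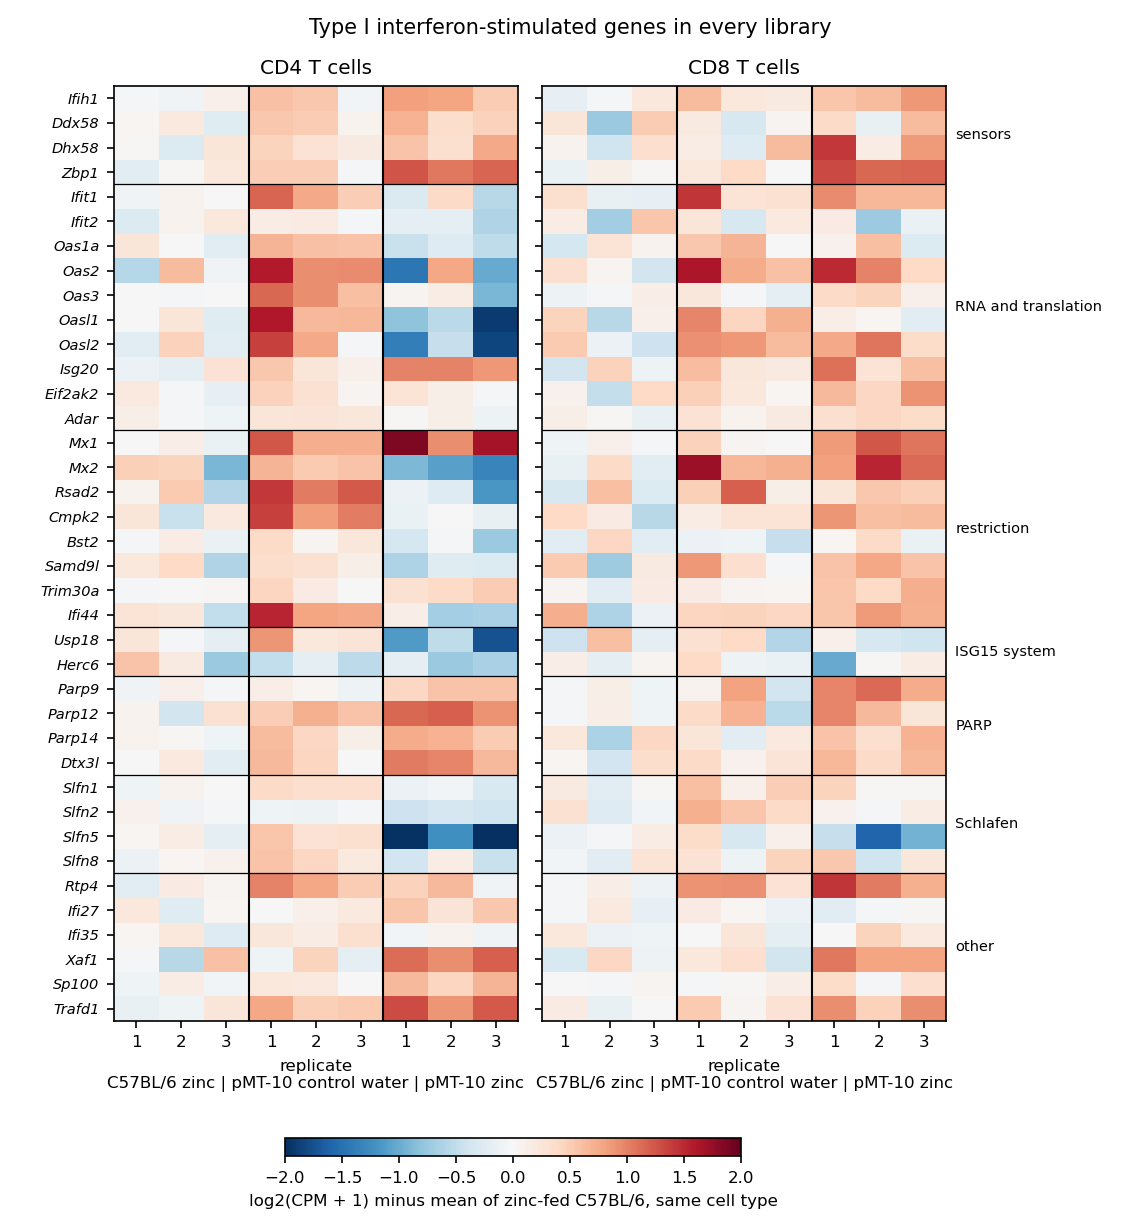
Heat map of the 38 genes (rows, grouped by role) in the 18 libraries (columns, by cell type, kind of mouse and replicate). Colour is log2(CPM + 1) minus the mean of the 3 zinc-fed C57BL/6 libraries of the same cell type, and values beyond 2 in either direction carry the end colour. In CD4 cells of zinc-fed pMT-10 mice the sensor and PARP rows are red while Slfn5, Oasl1, Oasl2, Mx2 and Usp18 are blue, and the control-water CD4 columns are mostly red, with fitted fold changes above 0 for 36 of 38 genes.

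Among the sensors of viral nucleic acid, Zbp1, which binds Z-form RNA and DNA and can start cell death, was at 75.5, 90.5 and 102 CPM in CD4 cells of zinc-fed C57BL/6 mice, at 125, 125 and 87.4 CPM in pMT-10 on control water and at 214, 186 and 201 CPM in zinc-fed pMT-10. The 3 zinc-fed pMT-10 libraries lay above all 6 control libraries, while the control groups overlapped. Zbp1 rose by 1.16 log2 units (SE 0.16, adjusted p = 1.82e-05) against C57BL/6 and by 0.83 (SE 0.15, adjusted p = 0.000562) against control water. Ifih1, the RNA sensor MDA5, rose by 0.73 (SE 0.20) against C57BL/6 and had a log2 fold change of 0.34 (SE 0.20) against control water, which did not pass. The RNA sensor RIG-I, encoded by Ddx58, and its relative Dhx58 passed in neither comparison, with log2 fold changes of 0.50 and 0.56 against C57BL/6 and of 0.12 and 0.26 against control water.

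The proteins that bind, cut or edit RNA or stop translation split by direction. Of the 10 genes measured, 1 rose and 2 fell against C57BL/6, and 1 rose and 6 fell against control water, with medians of -0.25 and -0.99. Isg20, an exonuclease that degrades single-stranded RNA, was the 1 that rose. Its CD4 levels were 32.7, 31.3 and 43.4 CPM in C57BL/6, 52.2, 41.9 and 38.2 CPM on control water and 71.7, 71.1 and 65.6 CPM in zinc-fed pMT-10, the last above every control library. Its log2 fold change was 0.96 (SE 0.23) against C57BL/6 and 0.66 (SE 0.23) against control water.

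The 2',5'-oligoadenylate synthetases, which make the second messenger that activates RNase L, and their OASL relatives went the other way. Oasl1 was at 5.55, 6.79 and 4.56 CPM in C57BL/6, 18.9, 9.28 and 9.42 CPM on control water and 2.74, 3.54 and 0.749 CPM in zinc-fed pMT-10. Oasl2 was at 19.99, 33.03 and 20.03 CPM in C57BL/6, 62.8, 40.8 and 23.03 CPM on control water and 8.42, 16.8 and 5.92 CPM in zinc-fed pMT-10. For both genes all 3 zinc-fed pMT-10 libraries lay below every control library, and control-water replicate 1 was the highest. Oasl1 fell by 1.27 (SE 0.44, adjusted p = 0.0474) against C57BL/6 and by 2.42 (SE 0.44, adjusted p = 0.000467) against control water. Oasl2 fell by 1.24 (SE 0.37, adjusted p = 0.0245) and by 2.03 (SE 0.38, adjusted p = 0.000665). Oas3 was called against control water alone.

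Oas3, the largest of the synthetases, was at 38.3, 37.1 and 38.3 CPM in C57BL/6, 85.3, 73.2 and 57.8 CPM on control water and 39.4, 41.9 and 19.6 CPM in zinc-fed pMT-10. The zinc-fed pMT-10 libraries overlapped C57BL/6 and lay below control water, with log2 fold changes of -0.17 (SE 0.22) and -1.10 (SE 0.22). Oas1a and Oas2, of the same family and the same stretch of chromosome 5, fell by 1.04 and 1.53 against control water and did not pass against C57BL/6, at -0.42 and -0.35. Ifit1, which binds viral RNA lacking a host cap, fell by 0.94 against control water and was at -0.10 against C57BL/6. Ifit2, a relative of Ifit1, the RNA-activated kinase PKR (Eif2ak2), which stops translation, and the RNA-editing enzyme Adar passed in neither comparison, with log2 fold changes between -0.41 and 0.12.

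Among the 8 genes that block virus entry, replication or release, 2 rose and 1 fell against C57BL/6, while 0 rose and 5 fell against control water. The neighbours Mx1 and Mx2 on chromosome 16, which encode dynamin-like GTPases, differed in direction. Mx1 was at 9.96, 11.1 and 9.03 CPM in C57BL/6, 25.1, 17.2 and 17.2 CPM on control water and 39.1, 19.8 and 33.7 CPM in zinc-fed pMT-10. The zinc-fed pMT-10 libraries lay above C57BL/6 without overlap but overlapped control water. Mx1 rose by 1.62 (SE 0.25, adjusted p = 8.78e-05) against C57BL/6 and had a log2 fold change of 0.64 (SE 0.24) against control water, which did not pass.

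Mx2, which the GENCODE annotation lists as a polymorphic pseudogene, was at 3.27, 3.16 and 0.628 CPM in C57BL/6, 3.94, 3.41 and 3.56 CPM on control water and 0.653, 0.443 and 0.225 CPM in zinc-fed pMT-10. The values are low, and C57BL/6 replicate 3 fell among the zinc-fed pMT-10 libraries. Mx2 fell by 2.39 (SE 0.74, adjusted p = 0.0271) against C57BL/6 and by 3.01 (SE 0.75, adjusted p = 0.00648) against control water. Rsad2, which encodes viperin and makes a chain-terminating nucleotide, and its neighbour Cmpk2, a mitochondrial nucleotide kinase, both fell against control water, by 2.04 (SE 0.51, adjusted p = 0.00642) and 1.20 (SE 0.22). Neither passed against C57BL/6, at -0.68 and -0.12.

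Cmpk2 was also the 1 listed gene called between the control groups in CD4 cells. It was at 50.5, 30.9 and 49.0 CPM in C57BL/6, 111, 76.8 and 87.04 CPM on control water and 38.6, 42.9 and 38.1 CPM in zinc-fed pMT-10, so its zinc-fed pMT-10 level lay within the C57BL/6 range and the control-water libraries stood above both. Ifi44, an interferon-induced cytoplasmic protein, fell by 1.74 (SE 0.56, adjusted p = 0.0325) against control water, and Bst2, the tetherin that holds budding virions at the membrane, fell by 0.57. Trim30a, a TRIM protein that restrains innate signalling, was at 254, 263 and 266 CPM in C57BL/6, 352, 293 and 262 CPM on control water and 323, 341 and 371 CPM in zinc-fed pMT-10. It rose by 0.40 (SE 0.13) against C57BL/6, without overlap, and was at 0.19 (SE 0.13) against control water, where the libraries overlapped. Samd9l, a restrictor of poxviruses, passed in neither comparison, at -0.45 and -0.67.

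Usp18, the protease that removes ISG15 from proteins and blocks signalling at IFNAR2, was at 22.9, 18.6 and 16.7 CPM in C57BL/6, 36.4, 22.3 and 23.1 CPM on control water and 8.22, 13.3 and 5.02 CPM in zinc-fed pMT-10. All 3 zinc-fed pMT-10 libraries lay below every control library. It fell by 1.14 (SE 0.34) and by 1.63 (SE 0.34). Herc6, the mouse ligase for ISG15, passed in neither comparison, at -0.70 (SE 0.39) and -0.14 (SE 0.39).

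Of the 4 ADP-ribosyltransferase genes, counting a partner, 3 rose against C57BL/6. Parp12, Parp14 and Dtx3l, the ubiquitin ligase that pairs with PARP9, rose by 1.08, 0.65 and 0.90, and Parp9 was at 0.52 (SE 0.19) and did not pass. Dtx3l and Parp9 overlap at their starts, on opposite strands of chromosome 16, so reads from the overlap may count for either. Parp9 levels were 161, 180 and 164 CPM in C57BL/6, 184, 173 and 157 CPM on control water and 224, 251 and 248 CPM in zinc-fed pMT-10, with the last above all control libraries. Against control water the 4 genes were at 0.25 to 0.52 and 0 of the 4 passed.

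All 4 Schlafen genes, which lie within 1 cluster on chromosome 11 and have been tied to T cell quiescence and growth control, had log2 fold changes below 0 in both CD4 comparisons. Slfn5 was at 156, 168 and 132 CPM in C57BL/6, 223, 185 and 190 CPM on control water and 37.6, 64.1 and 27.7 CPM in zinc-fed pMT-10. No zinc-fed pMT-10 library came near a control library, and replicate 2 was the highest of the 3. Slfn5 fell by 1.82 (SE 0.27, adjusted p = 6.7e-05) against C57BL/6 and by 2.21 (SE 0.27, adjusted p = 8.01e-06) against control water, a mean 3.52-fold and 4.62-fold lower.

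Slfn2, the listed gene with the highest mean count over all libraries, was at 1119, 1004 and 1031 CPM in C57BL/6, 986, 974 and 1030 CPM on control water and 788, 834 and 794 CPM in zinc-fed pMT-10. The zinc-fed pMT-10 libraries lay below all controls, but the change passed against C57BL/6 (-0.39, SE 0.13) and not against control water (-0.31, SE 0.13). Slfn1 and Slfn8 fell by 0.51 and 0.60 against control water and were at -0.16 and -0.21 against C57BL/6.

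Of the 6 remaining genes, Trafd1, a brake on innate signalling, was at 52.3, 54.6 and 69.1 CPM in C57BL/6, 99.8, 81.6 and 83.9 CPM on control water and 145, 108 and 138 CPM in zinc-fed pMT-10. The 3 groups did not overlap, with control water in the middle. Trafd1 rose by 1.15 (SE 0.17) against C57BL/6 and by 0.56 (SE 0.17) against control water. Sp100, a component of PML nuclear bodies, was at 376, 445 and 385 CPM in C57BL/6, 466, 457 and 400 CPM on control water and 631, 539 and 643 CPM in zinc-fed pMT-10, and rose by 0.59 (SE 0.12) and 0.45 (SE 0.12). Xaf1, a pro-apoptotic partner of XIAP, was at 8.06, 5.33 and 12.9 CPM in C57BL/6, 7.69, 11.7 and 7.06 CPM on control water and 19.0, 16.7 and 20.3 CPM in zinc-fed pMT-10. Xaf1 rose by 1.09 (SE 0.32) and 1.08 (SE 0.32), with zinc-fed pMT-10 above all controls and the control groups overlapping. Ifi27 rose by 0.45 (SE 0.15) against C57BL/6 and was at 0.36 against control water, while Rtp4, a chaperone of receptors at the cell surface, and Ifi35 passed in neither comparison, at 0.37 and -0.03 and at -0.40 and -0.25.

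**Figure D2:**
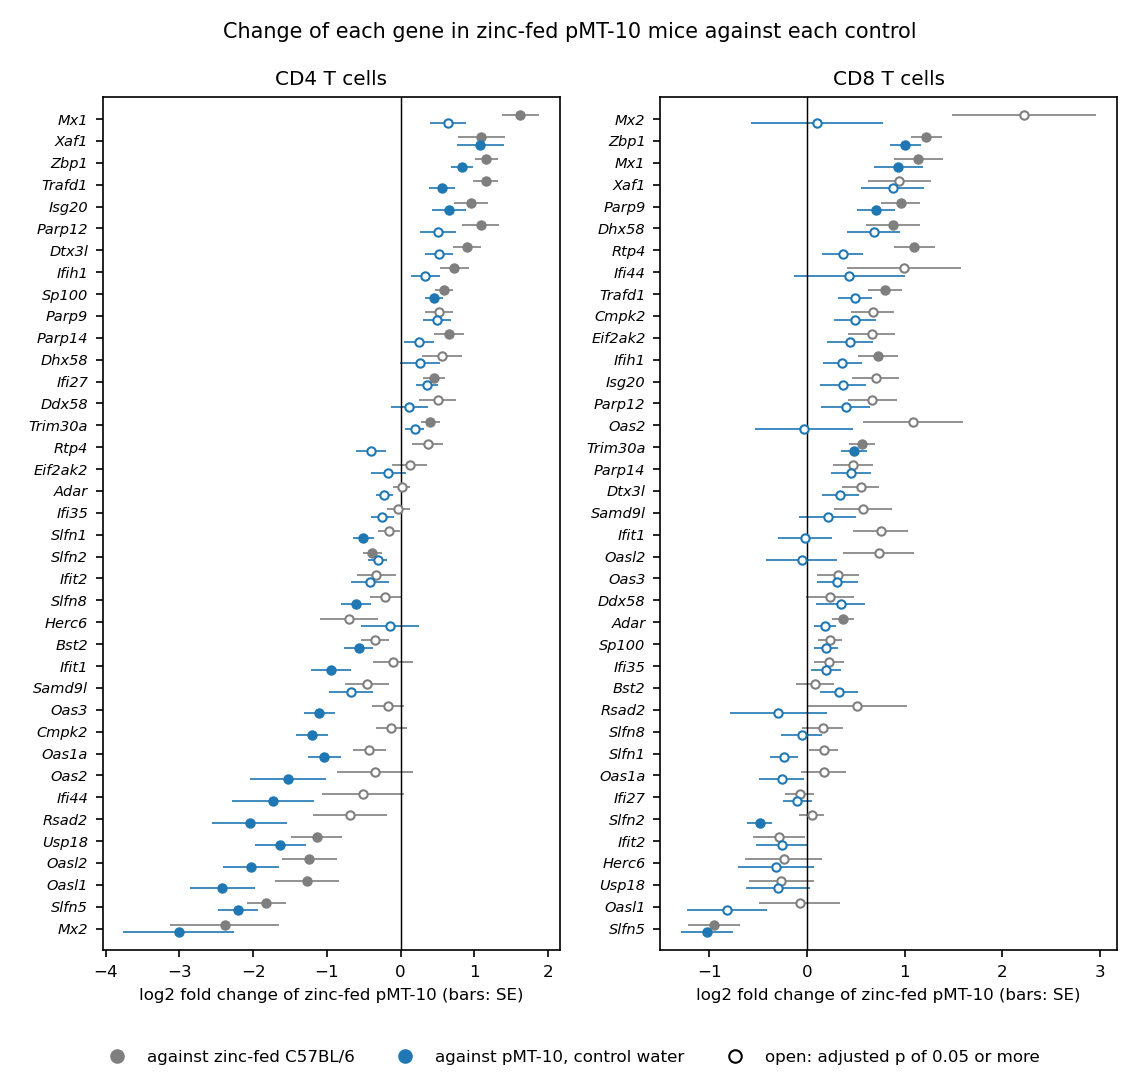
Log2 fold change of each of the 38 genes in zinc-fed pMT-10 mice against zinc-fed C57BL/6 (grey) and against pMT-10 on control water (blue), with bars of 1 SE, for CD4 cells (left) and CD8 cells (right); filled points have an adjusted p under 0.05. In CD4 cells the blue points lie to the left of the grey ones for 36 of 38 genes, and Slfn5 and Mx2 are at the bottom of the panel at -1.82 and -2.39 in grey.

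Calls in CD4 cells rested on 3 libraries a group, and single libraries ended some of them. Against C57BL/6, 8 of the 18 calls held whichever library was left out: Slfn5, Mx1, Zbp1, Trafd1, Sp100, Dtx3l, Parp12 and Isg20. Without C57BL/6 replicates 1, 2 and 3 in turn, 11, 8 and 14 of the 18 calls held, and without zinc-fed pMT-10 replicates 1, 2 and 3, 11, 14 and 10 held. The highest adjusted p reached by a gene whose call ended was 0.204 for Oasl1, 0.192 for Ifi27, 0.151 for Slfn2, 0.140 for Trim30a, 0.133 for Oasl2 and Usp18, 0.119 for Mx2, 0.116 for Xaf1, 0.0827 for Parp14 and 0.0528 for Ifih1. Against control water, 10 of the 20 calls held whichever library was left out: Mx2, Oasl1, Slfn5, Rsad2, Oasl2, Usp18, Cmpk2, Oas3, Oas1a and Zbp1. Without control-water replicates 1, 2 and 3, 13, 13 and 11 of the 20 held, and without zinc-fed pMT-10 replicates 1, 2 and 3, 12, 18 and 10 held. There the highest adjusted p was 0.227 for Bst2, 0.207 for Slfn8, 0.188 for Oas2, 0.174 for Isg20, 0.155 for Ifi44, 0.112 for Ifit1, 0.102 for Trafd1, 0.0980 for Xaf1, 0.0950 for Slfn1 and 0.0786 for Sp100. Oas2 moved most, from -1.53 to -2.68 without zinc-fed pMT-10 replicate 2. Scaling by library totals in place of TMM moved the median of all genes to -0.16 against C57BL/6 and -0.20 against control water, and left 2 of the 5 genes called higher against control water, Zbp1 and Xaf1.

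The ISRE letters were also counted by the direction of the CD4 calls. Of the 13 genes with a window that fell against either control, 7 held ISRE letters: Bst2, Ifit1, Oas1a, Oas3, Rsad2, Slfn5 and Slfn8. Of the 8 that rose against either control, 2 did (Ifih1 and Trim30a), and of the 7 called in neither comparison 2 did (Ddx58 and Eif2ak2). The GAS letters were present in 2 of 13, 1 of 8 and 4 of 7. These shares are counts over few genes and were not tested.

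Between the control groups in CD4 cells, pMT-10 on control water against zinc-fed C57BL/6, 1 of the 38 genes passed the test, while most fold changes lay on 1 side of 0. Of the 38, 36 had a log2 fold change above 0, with a median of 0.39, beside 5708 of 11316 and a median of 0.00 over all genes. In 18 of the 38 all 3 control-water libraries lay above all 3 C57BL/6 libraries, where 6.14% of all tested genes did, and 0 lay below, where 5.48% did. At an adjusted p under 0.05 the test called 1 of the 38, Cmpk2, where 0.0795% of all genes were called higher and 0.0619% lower, and 16 had an unadjusted p under 0.05. The share over all genes at an unadjusted p was not counted, here or below. Cmpk2 rose by 1.08 (SE 0.22, adjusted p = 0.0462), and that call ended without any 1 of the 6 libraries, with adjusted p up to 0.416 without control-water replicate 1. The largest values that did not pass were 1.36 for Rsad2, 1.22 for Ifi44, 1.18 for Oas2 and 1.15 for Oasl1. Control-water replicate 1 held the highest of the 3 levels for 30 of the 38 genes and replicate 3 the lowest for 24, so the spread within that group was shared by many of the genes. Chip, strain, sex and zinc all differ between these groups and cannot be told apart.

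In CD8 cells most calls among the listed genes were upward. Against zinc-fed C57BL/6, 9 of the 38 genes rose and 1 fell in zinc-fed pMT-10 mice, where 5.68% of all tested genes rose and 3.13% fell, and the median was 0.56 beside 0.00 over all genes. Without overlap, 17 lay above C57BL/6, where 12.2% of all genes did, and 1 below, where 11.4% did. Against pMT-10 on control water 4 rose and 2 fell, where 5.1% rose and 2.64% fell, and the median was 0.26. There 9 lay above without overlap, where 11.9% of all genes did, and 3 below, where 11.2% did. The genes called higher against both controls were Zbp1, Mx1, Trim30a and Parp9, and Slfn5 was called lower against both.

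Zbp1 was at 61.8, 73.7 and 69.1 CPM in CD8 cells of C57BL/6 mice, 79.0, 89.9 and 68.7 CPM on control water and 171, 152 and 154 CPM in zinc-fed pMT-10. The zinc-fed pMT-10 libraries stood well above both control groups, as in CD4 cells. Zbp1 rose by 1.22 (SE 0.16, adjusted p = 2.52e-05) against C57BL/6 and by 1.01 (SE 0.16, adjusted p = 0.000169) against control water. Mx1 was at 8.67, 10.001 and 9.04 CPM in C57BL/6, 13.04, 9.56 and 9.27 CPM on control water and 17.4, 23.1 and 20.6 CPM in zinc-fed pMT-10, and rose by 1.14 (SE 0.25, adjusted p = 0.00542) and 0.94 (SE 0.25, adjusted p = 0.0214), without overlap.

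Parp9 was at 143, 159 and 139 CPM in C57BL/6, 155, 257 and 113 CPM on control water and 289, 322 and 247 CPM in zinc-fed pMT-10. Control-water replicate 2 reached the zinc-fed pMT-10 range and the other libraries did not overlap. Parp9 rose by 0.96 (SE 0.19, adjusted p = 0.00272) and 0.71 (SE 0.19, adjusted p = 0.0252). Trim30a was at 251, 210 and 272 CPM in C57BL/6, 272, 253 and 250 CPM on control water and 357, 322 and 405 CPM in zinc-fed pMT-10, above all controls, and rose by 0.56 (SE 0.13) and 0.48 (SE 0.13, adjusted p = 0.0235). Rtp4 rose against C57BL/6 by 1.10 (SE 0.21, adjusted p = 0.00169) and was at 0.37 against control water.

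The sensors Ifih1 and Dhx58 also rose against C57BL/6, by 0.73 (SE 0.21) and 0.88 (SE 0.28, adjusted p = 0.0494), as did Adar, by 0.37 (SE 0.11). Against control water those 3 were at 0.36, 0.68 and 0.18 and did not pass. Trafd1 was at 46.9, 37.6 and 41.9 CPM in C57BL/6, 60.8, 43.8 and 51.2 CPM on control water and 80.7, 58.0 and 80.9 CPM in zinc-fed pMT-10. It rose by 0.80 (SE 0.18) against C57BL/6, without overlap, and was at 0.49 against control water, where zinc-fed pMT-10 replicate 2 overlapped.

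The Schlafen genes gave the only CD8 calls downward. Slfn5 was at 59.2, 62.2 and 71.4 CPM in C57BL/6, 82.6, 51.2 and 68.6 CPM on control water and 46.2, 20.7 and 32.7 CPM in zinc-fed pMT-10, below every control library. It fell by 0.95 (SE 0.27, adjusted p = 0.0301) and 1.02 (SE 0.27, adjusted p = 0.0202). Slfn2 was at 780, 528 and 605 CPM in C57BL/6, 1026, 921 and 821 CPM on control water and 666, 617 and 694 CPM in zinc-fed pMT-10. Its zinc-fed pMT-10 libraries lay within the C57BL/6 range and below control water, where it fell by 0.49 (SE 0.13, adjusted p = 0.0204).

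Of the other genes called lower in CD4 cells against both controls, Oasl1 and Usp18 were called in no CD8 comparison, and for neither was the difference between the cell types called. Oasl1 was at 9.70, 4.39 and 7.50 CPM in C57BL/6, 14.5, 9.66 and 11.97 CPM on control water and 7.68, 7.06 and 5.78 CPM in zinc-fed pMT-10, which overlapped C57BL/6 and lay below control water (-0.82, SE 0.41, not called). Usp18 was at 15.96, 33.1 and 18.8 CPM, 26.8, 28.7 and 14.1 CPM and 23.1, 17.1 and 16.2 CPM in the same order, and the 3 groups overlapped. Isg20, Xaf1 and Sp100, which had risen in CD4 cells against both controls, were called in CD8 cells against neither.

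Isg20 was at 9.44, 17.5 and 11.5 CPM in CD8 cells of C57BL/6 mice, 19.5, 14.6 and 14.3 CPM on control water and 27.9, 15.2 and 19.4 CPM in zinc-fed pMT-10, with overlap. Xaf1 was at 5.15, 9.07 and 6.02 CPM, 7.80, 8.59 and 4.87 CPM and 14.7, 12.1 and 12.1 CPM, with zinc-fed pMT-10 above all controls and log2 fold changes of 0.95 (SE 0.32) and 0.88 (SE 0.32) that did not pass. Sp100 was at 496, 488 and 519 CPM, 487, 512 and 548 CPM and 649, 490 and 635 CPM, where zinc-fed pMT-10 replicate 2 lay among the controls. For these 3 genes the difference between the cell types was itself not called.

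**Figure D3:**
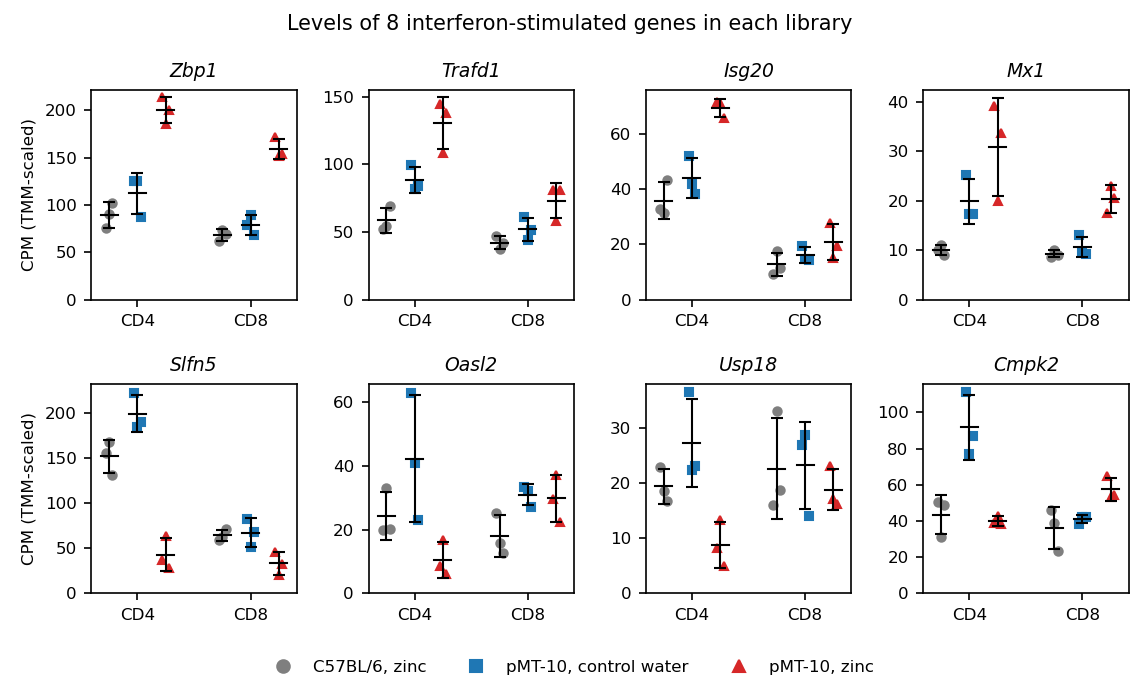
CPM of 8 genes in each library (points), with the mean and SD of each group of 3 (black bars), for CD4 and CD8 cells in zinc-fed C57BL/6 (grey circles), pMT-10 on control water (blue squares) and zinc-fed pMT-10 (red triangles). Zbp1 is highest in zinc-fed pMT-10 in both cell types, Slfn5 lowest there in both, and Cmpk2 is highest on control water in CD4 cells at 76.8 to 111 CPM.

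Against C57BL/6, 5 of the 10 CD8 calls held whichever library was left out (Zbp1, Mx1, Rtp4, Parp9 and Trafd1), and the rest reached adjusted p of 0.299 for Dhx58, 0.208 for Adar, 0.133 for Slfn5, 0.109 for Ifih1 and 0.0502 for Trim30a. Without C57BL/6 replicates 1, 2 and 3, 8, 6 and 7 of the 10 calls held, and without zinc-fed pMT-10 replicates 1, 2 and 3, 8, 8 and 5 held. Against control water 1 of the 6 held throughout, Zbp1, and the others reached 0.133 for Parp9, 0.125 for Trim30a, 0.106 for Slfn2, 0.0984 for Slfn5 and 0.0979 for Mx1. Without control-water replicates 1, 2 and 3, 3, 4 and 2 of the 6 calls held, and without zinc-fed pMT-10 replicates 1, 2 and 3, 3, 2 and 3 held. Between the CD8 control groups 0 of the 38 genes were called by edgeR and 1 by DESeq2, and 7 had an unadjusted p under 0.05. Over all genes edgeR called 0.0265% higher and 0.0707% lower, and DESeq2 called 13 of 19957 higher and 28 lower. There too 35 of the 38 log2 fold changes were above 0, with a median of 0.22. The median over all genes was -0.005 with RLE factors and 0.019 by library totals. The share of all genes above 0 is not given here. In 5 genes (Mx2, Oas2, Oasl2, Rtp4 and Slfn2) all control-water libraries lay above all C57BL/6 libraries, where 4.56% of all genes did. In 0 genes they lay below, where 4.51% did. Control-water CD8 replicate 1 was the highest of its group for 23 of the 38 genes, and replicate 3 the lowest for 23.

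Whether the change in CD8 cells differed from that in CD4 cells was tested as an interaction. Against C57BL/6, 2 of the 38 genes had a CD8 change above their CD4 change and 0 a lower one, where 3.41% and 2.08% of all genes did; 9 were higher and 1 lower at an unadjusted p under 0.05. Against control water 3 were higher and 0 lower, where 2.44% and 1.34% of all genes were, and 16 were higher and 1 lower at an unadjusted p under 0.05. The unadjusted counts of both interactions have no share over all genes beside them. The CD8 levels of the genes called were as follows. Mx2 was at 0.343, 0.935 and 0.268 CPM in CD8 cells of C57BL/6 mice, 3.87, 1.37 and 1.43 CPM on control water and 1.62, 3.29 and 2.27 CPM in zinc-fed pMT-10. So zinc-fed pMT-10 lay above C57BL/6 in CD8 cells while in CD4 cells it overlapped only the lowest C57BL/6 library, and the difference was 4.61 log2 units (SE 1.05, adjusted p = 0.0133). With CPM this low the sizes of the Mx2 changes are imprecise, and without C57BL/6 CD8 replicate 2 the difference came to 5.32.

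Oasl2 was at 25.2, 15.7 and 12.7 CPM in CD8 cells of C57BL/6 mice, 33.2, 32.2 and 27.2 CPM on control water and 29.7, 37.1 and 22.4 CPM in zinc-fed pMT-10, where it overlapped both controls. Its CD8 change exceeded its CD4 change by 1.97 (SE 0.52, adjusted p = 0.0319) against C57BL/6 and by 1.98 (SE 0.52, adjusted p = 0.0379) against control water. Those 2 calls ended without 7 of 12 and 9 of 12 single libraries, with adjusted p up to 0.0989 and 0.118, both without zinc-fed pMT-10 CD4 replicate 1. Cmpk2 was at 46.0, 39.0 and 23.4 CPM, 38.5, 42.1 and 42.2 CPM and 64.8, 53.0 and 54.5 CPM in CD8 cells, with zinc-fed pMT-10 above all controls. The difference from its CD4 change was 1.69 (SE 0.31, adjusted p = 0.00353) against control water. Oas3 was at 54.8, 58.5 and 64.7 CPM, 69.1, 57.5 and 52.2 CPM and 77.5, 81.2 and 63.3 CPM, and its difference was 1.41 (SE 0.30, adjusted p = 0.0127) against control water. The Slfn5 difference was not called in either, at 0.87 (SE 0.37) and 1.19 (SE 0.37).

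**Figure D4:**
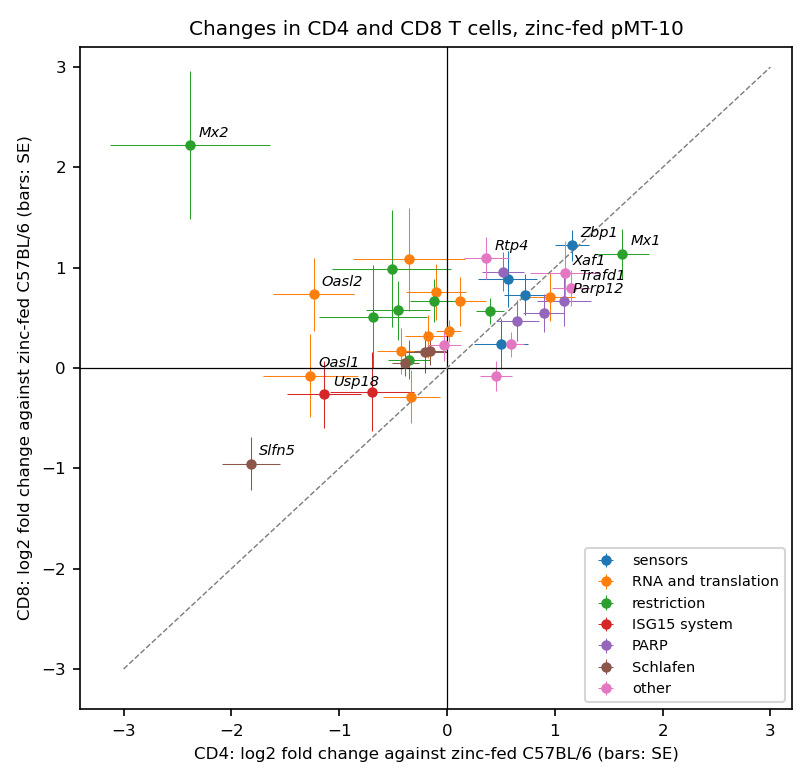
Change of each gene (log2) in zinc-fed pMT-10 mice relative to zinc-fed C57BL/6 in CD4 cells (horizontal) and CD8 cells (vertical), with bars of 1 SE and colours by role; the dashed line marks equal change. Zbp1, Mx1 and Trafd1 lie near the line in the upper right and Slfn5 in the lower left, while Mx2 and Oasl2 lie far above the line.

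CD8 and CD4 cells were also compared within each kind of mouse. The study states 3 mice of each kind, so CD4 and CD8 libraries may share a mouse; these tests and the interactions treat all libraries as independent. In zinc-fed C57BL/6 mice CD8 cells had higher levels than CD4 cells for 2 of the 38 genes (Oas3 and Ifi27) and lower levels for 10, where 9.28% and 12.9% of all genes were called. The 10 were led by Mx2 at -2.20, Ifi44 at -1.62, Isg20 at -1.49, Oas1a at -1.28, Ifih1 at -1.25 and Slfn5 at -1.24, and also held Ifit1, Eif2ak2, Slfn2 and Adar. On control water 0 were higher and 13 lower, where 8.94% and 12.8% of all genes were called, led by Ifi44 at -2.29, Slfn5 at -1.56, Oas1a at -1.46 and Isg20 at -1.45. The other 9 were Ifih1, Cmpk2, Ifit1, Mx1, Eif2ak2, Parp14, Trafd1, Zbp1 and Adar; by unadjusted p under 0.05, 1 gene was higher and 17 lower. With the transgene switched on, in zinc-fed pMT-10 mice, 8 were higher and 5 lower, where 13.4% and 14.7% of all genes were called. The 8 were Mx2 at 2.41, Oasl1 at 1.55, Oasl2 at 1.52, Oas3 at 1.14, Usp18 at 1.09, Samd9l at 0.96, Bst2 at 0.94 and Ifi35 at 0.57, and the 5 were Isg20 at -1.74, Ifih1 at -1.25, Trafd1 at -0.83, Oas1a at -0.68 and Parp14 at -0.57. Isg20, Oas1a and Ifih1 were lower in CD8 than in CD4 cells in all 3 kinds of mice. Without C57BL/6 CD8 replicate 1 the C57BL/6 value of Ifi44 moved to -2.59, and without C57BL/6 CD8 replicate 2 that of Mx2 moved to -2.93. Of the 12 C57BL/6 calls 5 held whichever library was left out, of the 13 zinc-fed pMT-10 calls 6 and of the 13 control-water calls 8.

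Upstream of these genes, reads of interferon ligands other than Ifng were close to none. The 15 such genes with a row summed to 3 to 9 reads per CD4 library of zinc-fed pMT-10 mice, 13 to 26 on control water and 5 to 97 in C57BL/6, the highest being C57BL/6 replicate 1. In CD8 libraries the sums were 13 to 16, 9 to 29 and 9 to 68 reads. Ifng, the gene of interferon gamma, was at 703, 467 and 816 CPM in CD4 cells of zinc-fed pMT-10 mice, 30.6, 41.4 and 76.7 CPM in C57BL/6 and 33.0, 45.4 and 32.6 CPM on control water. In CD8 cells Ifng was at 214, 155 and 351 CPM in zinc-fed pMT-10, 18.8, 5.79 and 8.97 CPM in C57BL/6 and 13.6, 5.85 and 7.42 CPM on control water. It rose by 3.74 and 4.16 log2 units in CD4 cells and by 4.42 and 4.73 in CD8 cells, against C57BL/6 and control water.

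Of 25 tested genes that carry the interferon signal or brake it, 6 rose and 3 fell in CD4 cells against C57BL/6, beside 9.29% and 9.4% of all genes, and 5 rose and 5 fell against control water, beside 9.38% and 9.4%. In CD8 cells 4 rose and 1 fell against C57BL/6, beside 5.68% and 3.13% of all genes, and 3 rose and 0 fell against control water, beside 5.1% and 2.64%. These shares over all genes are also the background for the counts of the lists that follow. The receptor genes Ifnar1 and Ifnar2 passed in none of the 4 comparisons, with log2 fold changes between -0.32 and 0.18. Stat2, a subunit of the factor that binds the ISRE, rose by 0.73 in CD4 cells against C57BL/6 and by 1.03 and 0.75 in CD8 cells against C57BL/6 and control water, and was at 0.11 in CD4 cells against control water. Irf9, its partner, rose in CD8 cells against C57BL/6 alone, by 0.47, and Irf7, which amplifies the response, passed in none, with log2 fold changes of 0.26 and -0.45 in CD4 and 0.55 and 0.15 in CD8 cells.

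Irf1 and Irf8, transcription factors that interferon gamma induces, rose in all 4 comparisons, Irf1 by 1.38 and 1.34 in CD4 and 1.54 and 1.32 in CD8 cells and Irf8 by 1.80 and 1.95 and by 2.56 and 2.62. In CD4 cells Ifngr2, a chain of the interferon gamma receptor, fell, with log2 fold changes of -2.06 and -1.84, as did the phosphatase gene Ptpn6, at -1.23 and -0.98, while Irf2, Jak2 and Ptpn1 rose by 0.51 to 0.84. Among 11 tested guanylate-binding and immunity-related GTPases, which interferon gamma induces strongly, 9 rose in CD4 cells against C57BL/6 and 5 against control water, and 10 rose in CD8 cells in each comparison; 0 fell in any of the 4. Examples are Gm12250, which rose by 0.98 and 0.86 in CD4 and 2.26 and 2.06 in CD8 cells, and Gbp2, by 1.21 and 1.05 and by 1.55 and 1.52. Of 48 tested genes from a further list of interferon-induced genes, 11 rose and 4 fell in CD4 cells against C57BL/6 and 7 rose and 8 fell against control water. In CD8 cells 13 rose and 1 fell, and 11 rose and 3 fell. Lgals3, Casp1, Sp140 and Nlrc5 rose in all 4 comparisons, and in CD4 cells the RNA sensor gene Tlr7 fell by 3.12 and 3.54 and Ms4a4c by 1.41 and 1.31.

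Marker genes of other cells that can make or answer interferon were summed beside these results. The plasmacytoid dendritic cell list without Bst2 summed to 26.4 to 30.3 CPM in CD4 cells of zinc-fed pMT-10 mice, 23.3 to 35.4 CPM in C57BL/6 and 29.6 to 31.6 CPM on control water. Siglech, which defines those cells, had 0 to 1 reads in zinc-fed pMT-10 CD4 libraries, 0 to 5 in C57BL/6 and 0 to 12 on control water. The 12 reads were in control-water replicate 1, which was the highest of its group for 30 of the 38 genes. The list without Bst2 summed to 29.6 CPM in that replicate, beside 30.4 and 31.6 CPM in replicates 2 and 3. In CD8 cells that sum was 40.5 to 47.8 CPM in zinc-fed pMT-10, below 74.1 to 106 CPM in C57BL/6 and 71.1 to 102 CPM on control water. Siglech itself had 0 reads in the CD8 libraries of zinc-fed pMT-10 and of control-water mice, and 0 to 4 in C57BL/6. The monocyte and macrophage list, of which 8 genes had a row, summed to 174 to 222 CPM in CD4 cells of zinc-fed pMT-10 mice, above 60.9 to 83.7 CPM in C57BL/6 and 77.9 to 114 CPM on control water; Ccr2, which T cells also express, gave 153 to 189 CPM of it. The NK cell list of 7 genes summed to 300 to 385 CPM there, above 55.2 to 70.9 CPM and 175 to 201 CPM, of which Eomes, which T cells can express too, gave 281 to 368 CPM. The B cell list of 5 genes reached 284 to 601 CPM, beside 217 to 287 CPM and 192 to 283 CPM, and the plasma cell list of 6 genes 413 to 475 CPM, beside 255 to 335 CPM and 263 to 288 CPM. Of the 5 B cell, 6 plasma cell and 7 NK cell genes, 3, 2 and 3 had 0 reads in zinc-fed pMT-10 CD4 libraries. In CD4 libraries those numbers were 2, 0 and 2 in C57BL/6 and 2, 1 and 1 on control water. In CD8 libraries the monocyte and macrophage list summed to 32.8 to 49.4 CPM in zinc-fed pMT-10 mice, above 13.9 to 20.5 CPM in C57BL/6 and 14.5 to 24.1 CPM on control water. The CD8 sums of the plasma cell list were 135 to 178 CPM, 80.3 to 127 CPM and 70.6 to 98.96 CPM in the same order, and those of the NK cell list 145 to 253 CPM, 114 to 142 CPM and 104 to 131 CPM. The erythroid list of 5 genes summed in zinc-fed pMT-10 mice to 27.5 to 32.0 CPM in CD4 and 35.4 to 42.9 CPM in CD8 libraries, above 12.5 to 15.3 CPM and 22.7 to 26.4 CPM in C57BL/6 and 10.6 to 18.2 CPM and 26.8 to 32.4 CPM on control water. The T cell list of 8 genes was also higher in CD4 libraries of zinc-fed pMT-10 mice, at 9459 to 10957 CPM. It was at 6463 to 7189 CPM in C57BL/6 and 5725 to 5789 CPM on control water. In CD8 libraries it was at 7909 to 9683, 10061 to 10509 and 8768 to 9913 CPM in the same order. The B cell, plasma cell and erythroid sums are not split by gene here. The part of other cells in the changes of the listed genes was not tested.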

How the data were processed

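RNA of 18 sorted bone marrow T cell libraries, 3 per group, was amplified with the AmpliSeq mouse panel. The authors deposited raw counts, 1 value per gene and library, in 1 table per sequencing chip and on mm10 per the submitters' processing notes; aligner and counter are not stated. The 2 tables were joined by gene. The members and gene lists were chosen with earlier results of these data known.

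Counts were tested with edgeR 4.0.16 (R 4.3.3): filterByExpr, TMM factors, 1 mean per group over all 18 libraries, robust quasi-likelihood F-tests, and Benjamini-Hochberg adjustment over the 11316 genes tested. A gene was called at an adjusted p under 0.05. CPM are counts scaled to TMM-adjusted library size. SE is that of the log2 fold change. A change is log2 of the first-named over the second-named group, and an interaction is the CD8 change minus the CD4 change. The script was tested on simulated counts. Alternatives were RLE factors, library totals, no filter, DESeq2 1.42.0, fits of only the libraries compared, and leaving out each library.

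Every member was to be named. Values in every library were given for members called the same way against both controls in at least 1 cell type, called between controls or called in an interaction, and for the 2 with the highest mean CPM, Slfn2 and Sp100. Full statistics were given for at most 6 called members per comparison. Of other lists, genes called the same way against both controls were eligible. Coordinates and gene types come from GENCODE M21 on GRCm38, and promoter sequences from RefSeq. The study states 3 mice of each kind. Depth was 10546798 to 18519474 counts per library.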

Additional observations from a re-analysis of the deposited data

Results flagged for a closer look

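In 4 of the 38 genes the change in CD8 cells differed from the change in CD4 cells by the interaction test, giving 5 results. These were 2 of the 38 against C57BL/6, where 3.41% of all tested genes were called higher and 2.08% lower. Against control water they were 3 of the 38, where 2.44% and 1.34% were. Against zinc-fed C57BL/6, the CD8 change exceeded the CD4 change by 4.61 log2 units for Mx2 (SE 1.05, adjusted p = 0.0133) and by 1.97 for Oasl2 (SE 0.52, adjusted p = 0.0319). Against pMT-10 on control water, it exceeded it by 1.69 for Cmpk2 (SE 0.31, adjusted p = 0.00353), by 1.41 for Oas3 (SE 0.30, adjusted p = 0.0127) and by 1.98 for Oasl2 (SE 0.52, adjusted p = 0.0379). In CD4 cells the fitted changes were -2.39 for Mx2 against C57BL/6, -1.20 for Cmpk2 and -1.10 for Oas3 against control water, and -1.24 and -2.03 for Oasl2. In CD8 cells none of these 4 genes was called in either comparison, at 2.22 for Mx2 against C57BL/6, 0.49 for Cmpk2 and 0.31 for Oas3 against control water, and 0.73 and -0.06 for Oasl2. The Mx2, Cmpk2 and Oas3 differences stayed called without any single library, and both Oasl2 differences did not.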

How the results depend on the processing

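Of 2089 fold changes of single genes refitted under other settings, 1970 kept their side of the threshold, 39 lost a call and 80 gained one. Of 2964 refitted without a single library, 2737 kept their side, 196 lost a call and 31 gained one. In both sets 0 changed sign where the gene was called in either fit. Changes of sign in genes called in neither fit were not counted. No paired analysis was possible because each title number names 1 library and the labels do not tie CD4 and CD8 libraries to a mouse. In what follows, counts are of listed genes called. By library totals, CD4 cells against control water gave 2 higher and C57BL/6 CD8 against CD4 0 higher. Zinc-fed pMT-10 CD8 against CD4 gave 3 lower and the interaction against control water 6 higher. Over all 11316 genes these 4 counts were 770, 844, 1354 and 537. Without the filter, the CD4 controls gave 5 higher, CD8 against C57BL/6 15 higher and the CD8 controls 3 higher. The interactions gave 5 (against C57BL/6) and 9 (against control water) higher. In the same order, 34, 846, 45, 714 and 616 of all 19957 genes were higher. In the main fit these were 9, 643, 3, 386 and 276 of 11316. By DESeq2, CD4 against control water gave 8 higher, the CD4 controls 2, CD8 against C57BL/6 14, the CD8 controls 1 and the interaction against control water 6. In the same order, DESeq2 called 1327, 23, 890, 13 and 517 of all 19957 genes higher. With only the libraries compared, CD4 against control water gave 9 higher and the CD4 controls 3 higher. CD8 against control water gave 2 higher and 1 lower, and C57BL/6 CD8 against CD4 1 higher and 6 lower. Over all genes these were 1670 of 10662, 14 of 10650, 424 and 168 of 10175, and 858 and 1205 of 10374. By RLE, C57BL/6 CD8 against CD4 gave 1 higher, beside 1002 of 11316 over all genes.

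Leaving out single libraries gave, in CD4 cells, 7 to 10 higher and 1 to 5 lower against C57BL/6. Against control water it gave 1 to 6 higher and 9 to 14 lower, and between controls 0 to 0 higher. Over the 11647 to 11756 genes of these fits, the same counts were 708 to 1084, 623 to 1124, 756 to 1005, 614 to 1098 and 2 to 6. In CD8 cells leaving out single libraries gave 5 to 9 higher and 0 to 1 lower against C57BL/6. Against control water it gave 1 to 4 higher and 0 to 2 lower, and between controls 0 to 1 higher. Over all genes the same counts were 417 to 607, 170 to 313, 410 to 571, 155 to 263 and 1 to 5. CD8 against CD4 gave 0 to 2 higher and 7 to 10 lower in C57BL/6 and 5 to 8 higher and 3 to 5 lower in zinc-fed pMT-10. On control water it gave 9 to 13 lower, and the interactions gave 1 to 4 and 2 to 7 higher. Over all genes the same counts were 745 to 929, 1155 to 1276, 1039 to 1447, 1127 to 1561, 1126 to 1190, 165 to 558 and 92 to 486. Over all genes, library totals gave 831 higher and 1448 lower (TMM 1051 and 1064) in CD4 cells against C57BL/6, 770 and 1688 (1061 and 1064) against control water, 1845 and 1354 (1512 and 1666) for zinc-fed pMT-10 CD8 against CD4, and 648 and 120 (386 and 235) and 537 and 76 (276 and 152) for the interactions. The causes were not tested. Depth limits Mx2, Ifi44 and Rsad2 most, the listed genes with the fewest reads.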
